A study of Rattus norvegicus with 32 samples.

Results

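The mitosis genes described here are 42 genes of cell division, chosen by name, whose products drive a cell into mitosis, build the spindle, separate the chromosomes and divide the cell. They were followed in the mammary gland of adult virgin Sprague-Dawley rats with regular 4-day estrous cycles and no treatment, from which 32 arrays were made with 1 rat per array and 1 rat per time point. A gene counted as measured where a probe set, the short probes on the array that read 1 transcript, had an intensity of at least 10 on the 31 arrays used here, and the probe set with the highest mean log2 intensity then stood for the gene. This left 30 members of 42, among 11211 genes with a single symbol and 21068 probe sets that passed the same limit. Time was counted in hours from the midnight that began cycle day 1. Of the rats used, 8 were killed on day 1 between 7 and 17.6 h, 8 on day 2, the day of estrus, between 31.6 and 43 h, 8 on day 3 between 57 and 67.1 h, and 7 on day 4 between 79.3 and 88.1 h. The array of 40 h on day 2 was set aside by the study for its quality and is given apart. No transgene, agent or array batch is named in the labels, and each rat is called here by its hour.

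Genes of mitosis are transcribed mainly late in the cell cycle, so that their RNA is abundant in dividing cells and scarce in resting ones. Cyclin A2 and the B cyclins switch on the kinase Cdk1, the Aurora and Polo kinases order the spindle and chromosomes, a checkpoint holds the cell until every chromosome is attached, and the anaphase-promoting complex then marks the cyclins and securin for destruction. In the mammary gland of a cycling female, division of epithelial cells is known to vary with the phase of the cycle. In whole gland RNA, fewer dividing cells and less RNA per dividing cell cannot be told apart.

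Many promoters of such genes carry a cell cycle genes homology region (CHR), most often with the letters TTTGAA and in a weaker form TTTAAA, and they carry CCAAT boxes. RefSeq promoter windows (GRCr8, 250 bases before to 50 after the start) were found for 25 of the 30 measured members. Ccna2, Aurkb, Ube2c, Racgap1 and Foxm1 were the 5 not matched. On either strand, and with overlapping matches each counted, TTTGAA stood in the windows of 21 of the 25 members, against 18.1% of the windows of 27457 genes. TTTAAA stood in 8 of 25, against 13.5% of all, and every one of the 25 held at least 1 of these 2 forms of the CHR, against 27.9% of all. CCAAT stood in 19 of 25, against 37.7% of all, and at least 2 copies in 15 of 25, against 11.5% of all. These are matches of letters, not sites of binding. The 150 bases before the start are shown for 4 members that passed the test of day 3 against day 1 below and for Aurka, the member least like the others across rats. Capitals mark both forms of the CHR and the CCAAT box, on either strand, so that a CCAAT box of the other strand reads ATTGG.
Ccnb2: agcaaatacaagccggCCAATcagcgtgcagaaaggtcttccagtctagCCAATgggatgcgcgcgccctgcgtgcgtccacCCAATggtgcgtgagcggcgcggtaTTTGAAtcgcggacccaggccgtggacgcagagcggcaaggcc
Cdk1: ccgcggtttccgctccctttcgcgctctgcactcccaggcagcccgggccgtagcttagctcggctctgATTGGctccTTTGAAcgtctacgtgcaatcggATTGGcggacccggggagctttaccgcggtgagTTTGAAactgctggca
Knstrn: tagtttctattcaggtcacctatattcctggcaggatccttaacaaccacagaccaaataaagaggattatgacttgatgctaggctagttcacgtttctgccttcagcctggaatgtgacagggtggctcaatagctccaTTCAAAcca
Kif20a: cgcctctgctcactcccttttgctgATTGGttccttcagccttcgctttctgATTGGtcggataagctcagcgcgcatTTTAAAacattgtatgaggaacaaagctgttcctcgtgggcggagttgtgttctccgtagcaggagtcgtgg
Aurka: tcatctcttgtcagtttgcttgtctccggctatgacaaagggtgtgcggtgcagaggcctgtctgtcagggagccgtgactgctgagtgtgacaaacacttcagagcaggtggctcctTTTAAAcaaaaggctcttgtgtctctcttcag
Ccnb2 (chr8:79981659-79981808, minus strand) held 3 CCAAT boxes that begin 134, 101 and 68 bases before the start, followed by TTTGAA at 43 bases. Cdk1 (chr20:19265143-19265292, plus strand) held TTTGAA at 72 and at 16 bases before the start. Knstrn (chr3:126254546-126254695, plus strand) held 1 match to TTTGAA, at 9 bases, and no CCAAT. Kif20a (chr18:26504272-26504421, plus strand) held TTTAAA at 72 bases behind CCAAT boxes at 125 and 98 bases. Aurka (chr3:181560770-181560919, minus strand) held TTTAAA at 32 bases and neither TTTGAA nor CCAAT.

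The members varied far more from rat to rat than most transcripts and did so together. The median SD of log2 intensity over the 31 rats was 1.06 for the 30 members, against 0.24 over all probe sets tested, and 28 of the 30 lay above the 95th percentile of all, 0.54. The highest rat stood above the lowest by 3.99-fold for Foxm1, a transcription factor of mitotic genes, and by 61.6-fold for Ccna2, cyclin A2, with a median of 22.6-fold. Within a day the median SD of the members was 0.48 for day 1 and 0.47 for day 4 but 1.20 for day 2 and 1.13 for day 3, so that the rats of days 2 and 3 differed most among themselves.

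The mean over the 30 members, on the log2 scale around each gene's own mean over the 31 rats, gave the course. On day 1 it was -0.12 (7 h), -0.97 (7.5 h), -1.15 (10 h), -0.17 (13 h), -0.40 (13.2 h), -0.83 (14.6 h), -0.98 (16 h) and -1.003 (17.6 h). No rat of day 1 reached the mean of all rats, and the 2 nearest to it were those of 7 and 13 h. On day 2 it was 0.04 (31.6 h), -0.97 (32.8 h), -0.93 (34.5 h), -1.13 (35.5 h), 1.31 (37.1 h), 0.22 (38.3 h), 0.27 (41.6 h) and 1.97 (43 h). The rats of 32.8 to 35.5 h lay as low as the low rats of day 1, and all rats from 37.1 h on lay above them. On day 3 it was 0.45 (57 h), 1.43 (58 h), 0.40 (59.8 h), 1.07 (61.3 h), 3.05 (62.5 h), -0.45 (64.2 h), 0.22 (65.6 h) and 0.31 (67.1 h). Only the rat of 64.2 h fell below the mean of all rats. On day 4 the rat of 82.5 h was at 0.59, and the other rats ran from -0.53 to -0.20.

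**Figure D1:**
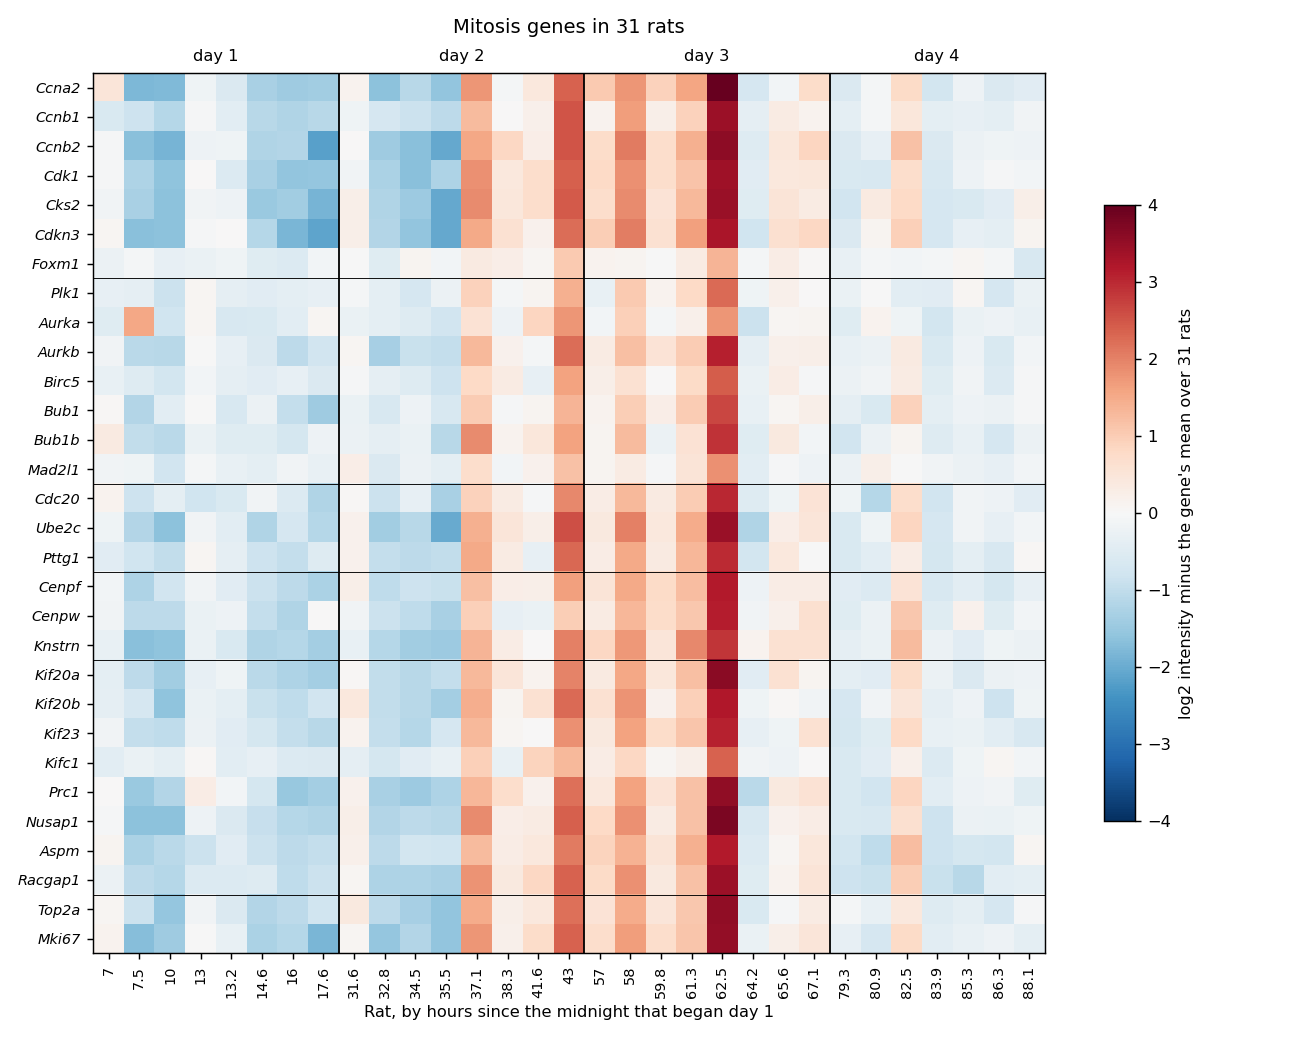
Log2 intensity of the 30 measured mitosis genes (rows, grouped by role) in 31 rats (columns, by hours since the midnight that began day 1), as the difference from each gene's mean over the rats. The column of 62.5 h is the darkest red in 29 of 30 rows, the columns of 37.1, 43, 58 and 61.3 h are also red, and most columns of day 1 and those of 32.8 to 35.5 h are blue.

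Few rats held the high values. The rat of 62.5 h was the highest for 29 of the 30 members and stood above the next rat by a median of 2.09-fold. The rat of 43 h was second for 27 members and the highest for Aurka, with 142 against 141 in the rat of 62.5 h. The rat of 58 h was next after these for 14 members and that of 37.1 h for 10. The 5 highest rats of a member included 58 h for 29 members, 37.1 h for 28 and 61.3 h for 28. The lowest rat was 35.5 h for 8 members, 10 h for 5 and 17.6 h for 5, and none of the 30 had its lowest value between 57 and 62.5 h. Each of these rats stands alone at its hour, so a difference between rats and a difference between hours cannot be told apart.

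Other genes of cell division, from lists drawn up with earlier results of these data known, followed the same rats. The mean over 28 measured genes of a second mitosis list of 55 (condensin subunits, kinesins and others) was highest in the rat of 62.5 h, at 1.73, and second highest in that of 43 h, at 0.99, and its Pearson correlation with the mean over the members was 0.98 over 31 rats (0.97 without the rats of 43 and 62.5 h). For 23 measured DNA replication genes of 28 the same rats were highest, at 1.36 and 0.99, with a correlation of 0.90 (0.79 without both rats). For 22 core genes of the anaphase-promoting complex and cohesin, RNA is known to vary little over the cell cycle. The same rats were highest and second highest there too, at 0.24 and 0.13, with a correlation of 0.74 (0.46 without both rats). These correlations are descriptions over the same 31 arrays, and the genes share those arrays.

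**Figure D2:**
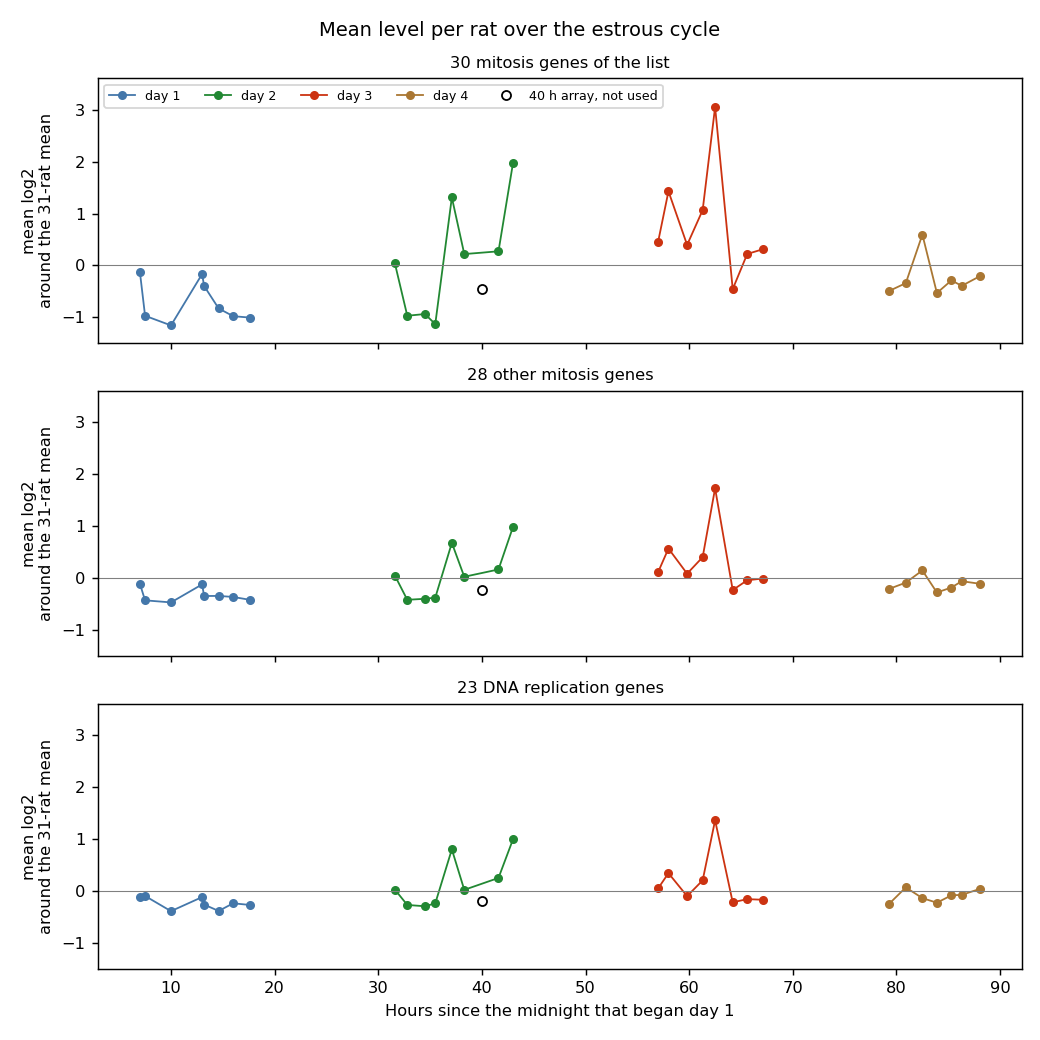
Mean log2 level per rat, around the mean of 31 rats, against hours since the midnight that began day 1 for the 30 mitosis genes, 28 other mitosis genes and 23 DNA replication genes, with 1 point per rat, lines joining rats of a day, and an open circle for the array of 40 h, which was not used. The rats of 43 and 62.5 h are the 2 highest in all 3 panels, at 1.97 and 3.05 for the 30 mitosis genes.

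The comparison of days asks which members differ between phases of the cycle. It was made with limma, a linear model fitted to log2 intensity over all 21068 probe sets with a level for each day and a common slope along the clock hour, and with Benjamini-Hochberg adjusted p-values over all probe sets and a threshold of 0.05. Day 3 against day 1 was the comparison in which members passed: 7 of 30 were higher on day 3 and none was lower, where 0.403% of all probe sets were higher, 0.721% were lower and 1.12% passed in either direction. The median change of the 30 members was 1.56 on the log2 scale, or 2.94-fold, against -0.005 over all probe sets, and all 30 had a positive change, from 0.36 for Aurka to 2.17 for Cdkn3. At an unadjusted p under 0.05 the members numbered 29 of 30, against 13.8% of all probe sets. For 3 members (Knstrn, Kif20b and Foxm1) all 8 rats of day 3 lay above all rats of day 1, and for 16 members 7 of the 8 did. The rat of 64.2 h was the lowest of day 3 for 28 members. Such counts of rats were not made over all probe sets, so no share of all stands beside them, here or below.

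The cyclins, Cdk1 and their regulators had the largest median change among the groups by role, 1.99 on the log2 scale over 7 members, and 3 of the 7 passed. Ccnb2, cyclin B2, had intensities with a lowest, median and highest of 64.4, 161 and 1103 in the 8 rats of day 3, against 20.4, 40.3 and 89.5 in the 8 rats of day 1. Only the rat of 64.2 h on day 3 overlapped with day 1. Its change was 2.15 ± 0.55 (standard error of the fit) with an adjusted p of 0.0484 from limma. Cdk1, the kinase that the cyclins switch on, had 53.7, 124 and 778 on day 3, against 24.1, 30.9 and 75.2 on day 1, with a change of 1.94 ± 0.50 and an adjusted p of 0.0498. Cdkn3, a phosphatase that acts on Cdk1 and its relatives, had 27.3, 89.99 and 460 on day 3, against 10.97, 18.3 and 50.1 on day 1, with a change of 2.17 ± 0.54 and an adjusted p of 0.0427. For Cdk1 and Cdkn3 too, 7 of 8 rats of day 3 lay above every rat of day 1. Ccna2 changed as much but did not pass: 42.2, 133 and 1191 on day 3, against 19.3, 26.6 and 94.7 on day 1, a change of 2.13 ± 0.56 and an adjusted p of 0.0522. Cks2, a small partner of Cdk1, had 81.6, 175 and 1234 on day 3, against 31.4, 44.3 and 102 on day 1, and Ccnb1, cyclin B1, had 42.1, 66.4 and 589 on day 3, against 23.9, 27.9 and 53.3 on day 1. In both, 7 rats of day 3 lay above all of day 1. Cks2 had a change of 1.99 ± 0.54 and Ccnb1 one of 1.56 ± 0.44, with adjusted p of 0.0607 and 0.0731. Foxm1 stood apart in this group with the smallest SD of all members, 0.41. It had 18.8, 21.6 and 51.4 on day 3, against 13.6, 16.7 and 18.7 on day 1, a small change of 0.52 ± 0.17 in which the days did not overlap, with an adjusted p of 0.145.

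All 3 members placed in the kinetochore group passed. The groups by role were drawn up by hand, and this one does not hold every kinetochore gene measured. Bub1, Bub1b and Mad2l1 were placed with the kinases and checkpoint and did not pass. None of the 28 genes of the second mitosis list passed, among them Nuf2, Spc25, Cenpk and Cenpn. Knstrn, which helps chromosomes align on the spindle and separate, had the lowest p of the members. Its intensities on day 3 were 58.6 (57 h), 109 (58 h), 45.5 (59.8 h), 125 (61.3 h), 236 (62.5 h), 35.9 (64.2 h), 50.5 (65.6 h) and 49.7 (67.1 h), against 26.98 (7 h), 10.2 (7.5 h), 10.9 (10 h), 27.3 (13 h), 21.3 (13.2 h), 14.4 (14.6 h), 14.8 (16 h) and 12.9 (17.6 h) on day 1. The days did not overlap, and the change was 2.09 ± 0.43 with an adjusted p of 0.0130. Cenpf, a large protein of the outer kinetochore, had a lowest, median and highest of 36.3, 65.7 and 379 on day 3, against 17.2, 23.8 and 38.6 on day 1, with a change of 1.66 ± 0.38 and an adjusted p of 0.0271. Cenpw, of the inner kinetochore, had 43.7, 78.9 and 427 on day 3, against 21.3, 32.9 and 49.4 on day 1, with a change of 1.47 ± 0.37 and an adjusted p of 0.0455. After the rat of 62.5 h its highest rats were those of 58 and 82.5 h, while all 29 other members had the rat of 43 h among their 3 highest.

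Of the 8 motor, spindle and cytokinesis members, 1 passed. Kif20a, a kinesin of the dividing cell's midzone, had 31.6, 61.9 and 528 on day 3, against 16.6, 20.6 and 38.6 on day 1, with a change of 1.75 ± 0.44 and an adjusted p of 0.0455. The changes of the others ran from 0.74 for Kifc1, a kinesin that draws spindle microtubules together, to 1.82 for Nusap1, a protein that bundles them, with adjusted p of 0.234 and 0.0664. Aspm, which organizes spindle poles, and Kif23, a kinesin of cytokinesis, both had an adjusted p of 0.0503. Kif20b, a kinesin that works in late mitosis, had 28.9, 43.5 and 304 on day 3, against 10.7, 19.9 and 26.97 on day 1, with no overlap between the days and an adjusted p of 0.101. Racgap1, which works with Kif23 at the midzone, had a median of 76.1 and a highest value of 525 on day 3, against 29.8 and 41.8 on day 1, and Prc1, which crosslinks midzone microtubules, had a lowest, median and highest of 29.4, 91.8 and 727 on day 3, against 21.9, 32.8 and 77.0 on day 1. Top2a, which untangles chromosomes, and Mki67, which coats them in mitosis and is the Ki-67 antigen, had changes of 1.56 and 1.90 and adjusted p of 0.113 and 0.0590. Mki67, a common label of dividing cells, had 81.3, 158 and 1118 on day 3, against 27.4, 42.3 and 107 on day 1.

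The kinases, their partners and the checkpoint had the smallest median change by role, 0.88 over 7 members, and none passed. Aurkb, the Aurora kinase of the chromosomal passenger complex, had the largest, 1.35, and its partner Birc5, survivin, had 0.88. Aurkb had 29.7, 51.3 and 323 on day 3, against 17.6, 23.7 and 37.1 on day 1, so that 7 of 8 rats of day 3 lay above all of day 1. Bub1 and Bub1b, kinases of the spindle checkpoint, had changes of 1.21 and 0.98, Plk1, the Polo kinase, had 0.83, and Mad2l1, the checkpoint protein that inhibits Cdc20, had 0.51. Aurka, the Aurora kinase of the centrosome, had the smallest, 0.36, with an adjusted p of 0.680, and 22.8, 44.5 and 141 on day 3, against 24.1, 30.4 and 122 on day 1. The 3 members of the destruction machinery did not pass either, with changes of 1.24 for Cdc20, which activates the anaphase-promoting complex, 1.66 for its ubiquitin-conjugating enzyme Ube2c and 1.31 for its target Pttg1, securin.

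**Figure D3:**
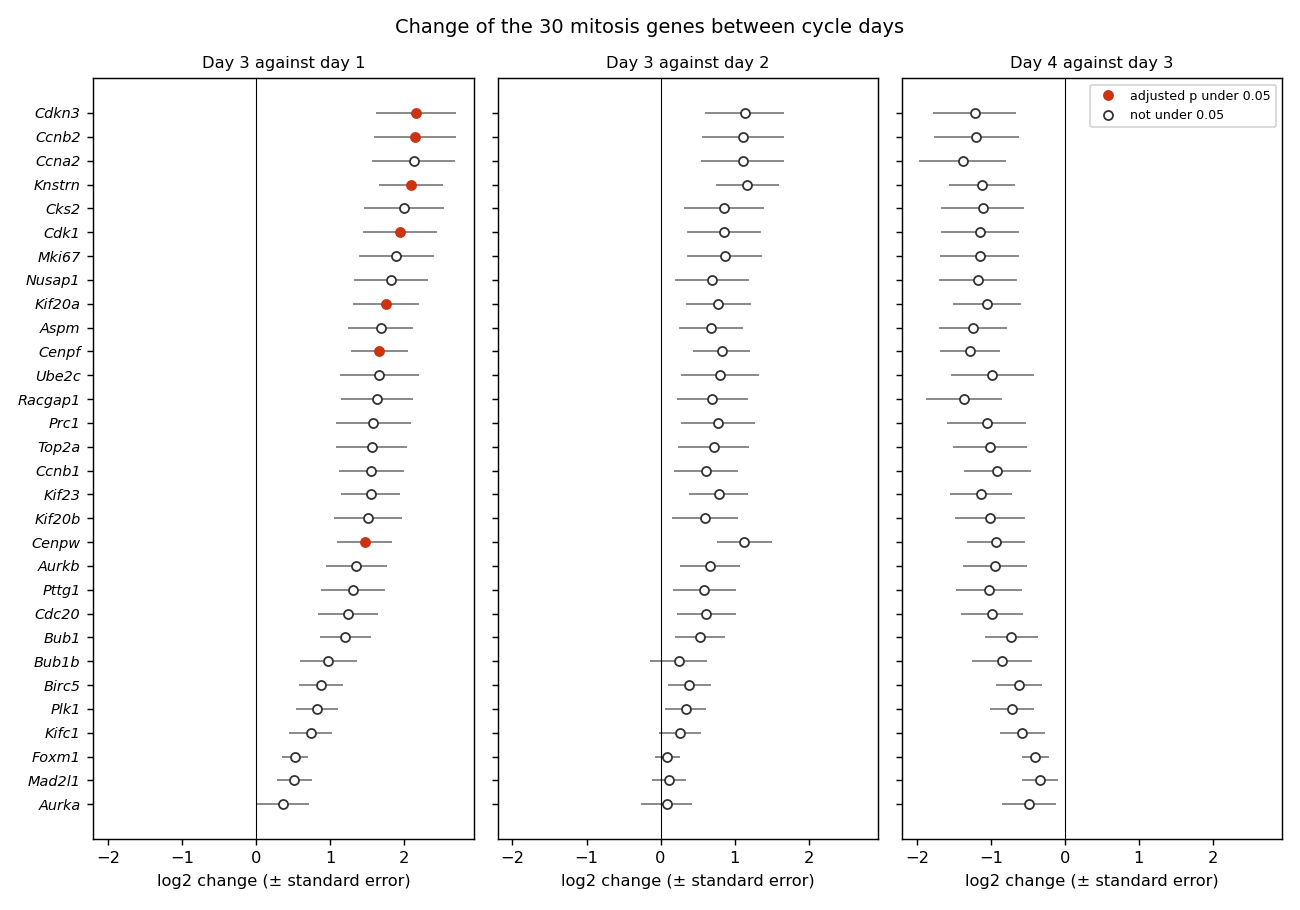
Change of each of the 30 mitosis genes on the log2 scale, with its standard error from the limma fit, for day 3 against day 1, day 3 against day 2 and day 4 against day 3, ordered by the change of day 3 against day 1. The 7 red points of day 3 against day 1 have an adjusted p under 0.05, while in the other comparisons no point does, although every point lies above 0 for day 3 against day 2 and below 0 for day 4 against day 3.

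The number of members that passed changed when single rats were left out, also rats of days 2 and 4, outside this contrast. Each fit was adjusted over all probe sets, and the share of all that passed in it is not given here. Whether the number moved for the members alone or for all probe sets was not tested. Leaving out the rat of 64.2 h gave 16 members, leaving out 43 h gave 15, 65.6 h gave 12, and 7, 13 or 32.8 h gave 11. Leaving out 67.1 or 79.3 h gave 4, and 80.9 or 83.9 h gave 3. Only 2 members passed when the rat of 7.5, 10, 13.2, 57, 59.8, 62.5, 85.3 or 88.1 h was left out, and 1 when it was that of 14.6, 16, 17.6, 58 or 61.3 h. Knstrn passed in all 31 of these fits, Cenpf in 26, Cdkn3 in 17, Cenpw in 15, Kif20a in 15, Cdk1 in 11 and Ccnb2 in 10. The median change stayed positive in all of them, from 1.20 without the rat of 62.5 h to 1.75.

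Markers of other cell types also moved between these days. Of 8 measured lymphocyte markers of 15, none passed, 5 had an unadjusted p under 0.05, and the median change was 0.74. Their mean level ran from -0.57 to 2.02 in the rats of day 3, against -0.51 to 0.24 in those of day 1, although lymph nodes had been removed. In the rat of 62.5 h it was -0.49, rank 24 of 31 from the top. With the mean of these markers as a covariate, added after the data were seen, 3 members passed (Cenpf, Kif20a and Knstrn). The median change of the 30 members was then 1.70, beside 1.56 without the covariate. Of 14 luminal epithelial markers, Krt8 and Krt18 were higher and Prom1 was lower on day 3, and the list's mean ran from -0.44 to 0.33 on day 3, against -0.26 to 0.24 on day 1. With that mean as a covariate 13 members passed, and the median change of the members was 1.57. The share of all probe sets that passed with either covariate is not given here. Of 10 basal and myoepithelial markers, Myh11, Cnn1, Tagln and Mylk were higher and Oxtr was lower, with means from -0.23 to 0.41 on day 3, against -0.49 to 0.12 on day 1. Of 11 measured macrophage markers 10 had a negative change, with a median of -0.33. Of these Cd163 passed, and 9 of the 11 had an unadjusted p under 0.05. Their means ran from -0.61 to 0.14 on day 3, against -0.01 to 0.42 on day 1, and in this list's mean the rat of 62.5 h was the lowest of all 31. The 9 measured endothelial markers had means from -0.33 to -0.03 on day 3, against -0.35 to 0.28 on day 1. None passed, 5 had an unadjusted p under 0.05, and the median change was -0.24. Of 13 adipocyte markers 12 were measured, and none passed. The mean of 6 skeletal muscle markers, a tissue next to the gland, ran from -4.31 to 2.41 over the 31 rats. Over the same 31 arrays, the Pearson correlation of a list's mean with the mean over the members was 0.48 for basal and myoepithelial markers (Spearman's rho 0.64, and 0.56 without the rats of 43 and 62.5 h), -0.46 for macrophage markers (rho -0.41, and -0.40) and -0.36 for endothelial markers (rho -0.30, and -0.17). It was -0.12 for skeletal muscle, -0.08 for luminal epithelial, 0.05 for adipocyte and 0.01 for lymphocyte markers. The part of these cell types in the change of the members was not tested beyond these covariates.

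No member passed in the comparisons of neighbouring days. Day 2 against day 1 gave 0 of 30 from limma, where 0.00475% of all probe sets passed, and 9 members had an unadjusted p under 0.05, against 5.78% of all. All 30 changes were positive, with a median of 0.84. For Ccnb2 the rats of 31.6, 37.1, 38.3, 41.6 and 43 h were at 92.7, 267, 163, 109 and 523 on day 2, against at most 89.5 on day 1. Those of 32.8, 34.5 and 35.5 h were at 34.2, 29.1 and 22.1, within the range of day 1. For 12 of the 30 members 5 of 8 rats of day 2 lay above all of day 1, and for 8 members 4 did. How often this held over all probe sets was not counted. Foxm1 had the lowest unadjusted p, 0.0168, with 14.2, 21.3 and 40.9 on day 2, against 13.6, 16.7 and 18.7 on day 1. Day 3 against day 2 gave 0 of 30 where 0.271% of all passed, and 4 members (Cenpw, Knstrn, Cenpf and Cdkn3) had an unadjusted p under 0.05, against 12.7% of all. All 30 changes were positive with a median of 0.70, which was 0.35 without the rat of 62.5 h. Cenpw had the lowest adjusted p, 0.191, and 3 of its 8 rats of day 3 lay above every rat of day 2.

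On day 4 against day 3 all 30 changes were negative, with a median of -1.02, or 0.49-fold. None of 30 passed, nor did any probe set of the 21068 (0% of all), and 20 members had an unadjusted p under 0.05, against 5.79% of all. Cenpf had the lowest unadjusted p, 0.00342, with 25.9, 30.5 and 60.8 in the 7 rats of day 4, against 36.3, 65.7 and 379 in the 8 rats of day 3. The highest of day 4 was the rat of 82.5 h, which lay above the 4 lowest rats of day 3, and without it the other 6 lay below all of day 3. Day 4 against day 1 gave 0 of 30, where 0.0237% of all passed, 1 member with an unadjusted p under 0.05 (Knstrn) against 6.47% of all, and a median of 0.49. Knstrn had 23.9, 27.9 and 79.0 on day 4, against 10.2, 14.6 and 27.3 on day 1, so that 4 of 7 rats of day 4 lay above all of day 1. The joint test of any difference among the 4 days called 0 of 30, where 0.574% of all passed. There 26 members had an unadjusted p under 0.05, against 10.9% of all, and the lowest adjusted p was 0.0653, for Knstrn. It called 1 member without the rat of 7, 37.1 or 43 h.

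Along the clock hour no member had a slope past the threshold. Limma called 0 of 30, where 1.96% of all passed, and 0 members had an unadjusted p under 0.05, against 12.6% of all. The median slope was 0.32 on the log2 scale over 10 h with all 30 positive, and -0.03 without the rat of 43 h. In the test of slopes that differ between days 0 of 30 passed, where 0.00475% of all did, and 5 members (Cdk1, Kifc1, Aurka, Mki67 and Racgap1) had an unadjusted p under 0.05, against 3.56% of all.

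**Figure D4:**
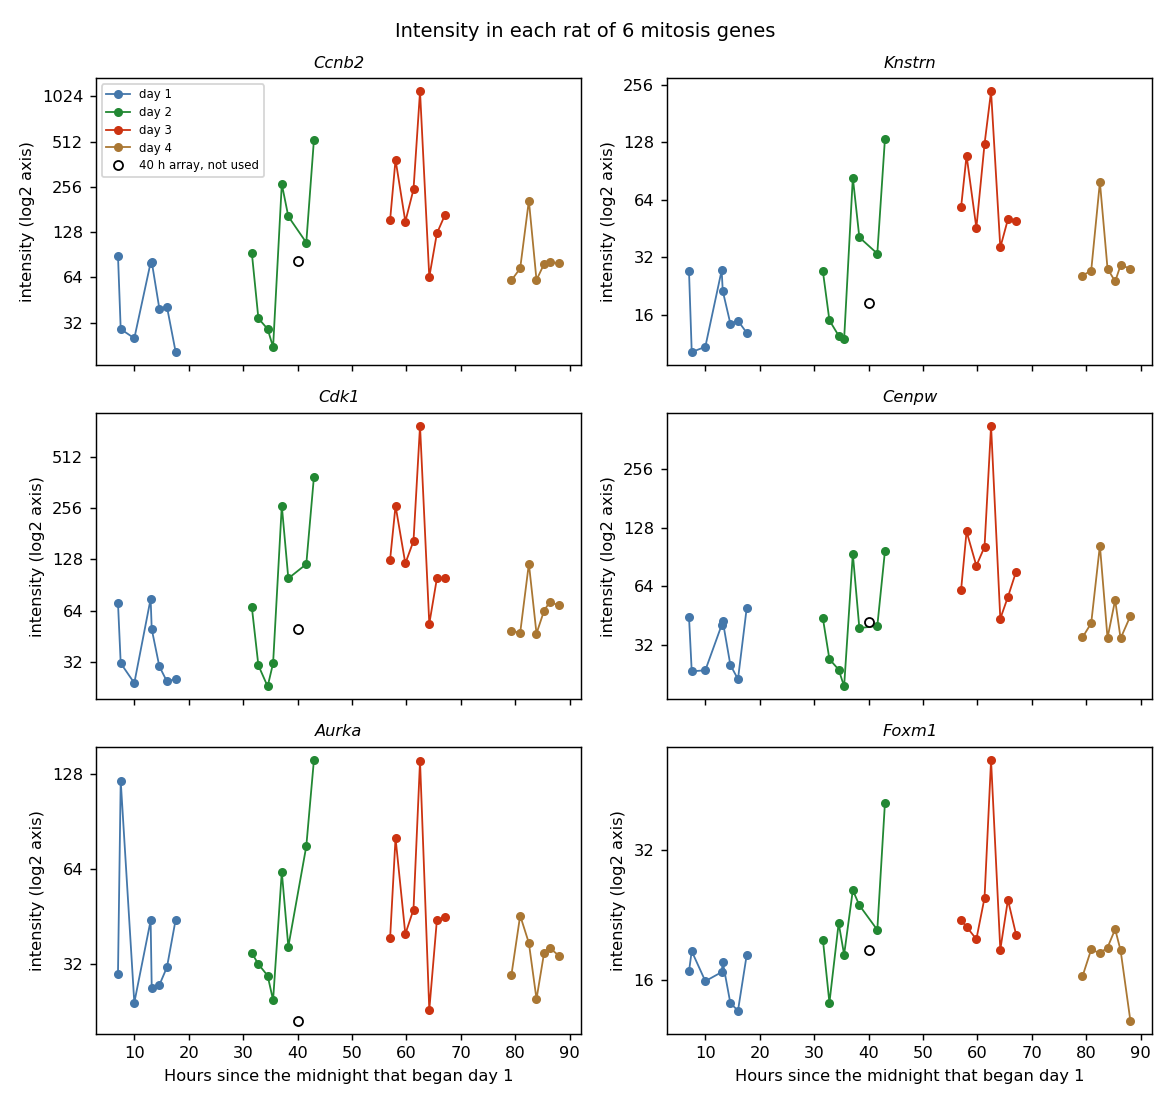
Intensity (log2 axis) of Ccnb2, Knstrn, Cdk1, Cenpw, Aurka and Foxm1 in each rat against hours since the midnight that began day 1, with lines joining rats of a day and an open circle for the array of 40 h, which was not used. The rat of 62.5 h is the highest in every panel but that of Aurka, where the rats of 43 and 62.5 h are at 142 and 141 and the rat of 7.5 h is next at 122.

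The study's own statistic for smooth change over the cycle, Method 1, fits a spline of straight segments to each log profile and takes the share of the variance that the fit holds, with p-values from permuted hours and a false discovery rate of 0.25. It called 20 of the 30 members, where 9.05% of all probe sets were called. It called 6 with splines of order 3, 1 (Knstrn) at a false discovery rate of 0.05 and 7 of 12 with an intensity limit of 20. The share of all probe sets called is not given for these runs, nor for those without 1 rat below. The 10 members not called were Ube2c, Bub1, Pttg1, Prc1, Cdc20, Plk1, Birc5, Bub1b, Aurka and Mad2l1, so that of the kinases and checkpoint members only Aurkb was called and of the destruction machinery none. At the knots the fitted course was highest at 43 h for 22 members and at 58 h for 8 (Ccna2, Cenpf, Cenpw, Kif20a, Kif23, Aspm, Cdkn3 and Knstrn), and lowest at 17.6 h for 13 and at 31.6 h for 17. The mean over the members of the fitted values at the knots, around the mean of all rats, was 1.25 (43 h), 1.15 (58 h) and 0.40 (67 h), and the rat of 62.5 h lay between knots. Leaving out the rat of 16 or 43 h gave 3 calls, 35.5 h gave 5, 59.8 h gave 6 and 58 h gave 8. Leaving out 80.9 or 83.9 h gave 9, 57 h gave 10 and 7 h gave 13. The remaining runs gave 14 to 27, the most without the rat of 41.6 h.

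The members followed one another closely across rats, apart from Aurka and, less far, Foxm1. The Pearson correlation of a member's log2 profile with the mean of the other 29 had a median of 0.97 over 31 rats and was at least 0.9 for 27 members. Without the rats of 43 and 62.5 h the median was 0.95. The closest were Nusap1 (0.991, Spearman's rho 0.986, and 0.983 without both rats), Aurkb (0.985, 0.975 and 0.972) and Kif20a (0.984, 0.942 and 0.972). Over the 435 pairs of members the median correlation was 0.92, and 0.88 without both rats, and the pair least alike was Bub1 and Aurka, at 0.56. All these values come from the same 31 arrays and are given as a description.

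Aurka departed most, with a correlation of 0.69 (Spearman's rho 0.65), and 0.44 without the rats of 43 and 62.5 h. Its rat of 7.5 h was at 122, far above the other 7 rats of day 1, which ran from 24.1 to 44.2, while 29 other members lay below their own means in that rat. Its lowest value of all 31 was 22.8 at 64.2 h, on day 3, the only member with its lowest rat on that day. Foxm1 had 0.83 (rho 0.70, and 0.62 without both rats), with its lowest value, 12.9, at 88.1 h on day 4, also unlike the others. Kifc1 had 0.90 (rho 0.80, and 0.79 without both rats), Mad2l1 0.91 (rho 0.84, and 0.81) and Plk1 0.91 (rho 0.74, and 0.81). Mad2l1, Foxm1 and Kifc1 had the smallest SDs of the members, 0.51, 0.41 and 0.66, and Ccnb2, Ccna2 and Cdkn3 the largest, 1.37, 1.36 and 1.33.

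**Figure D5:**
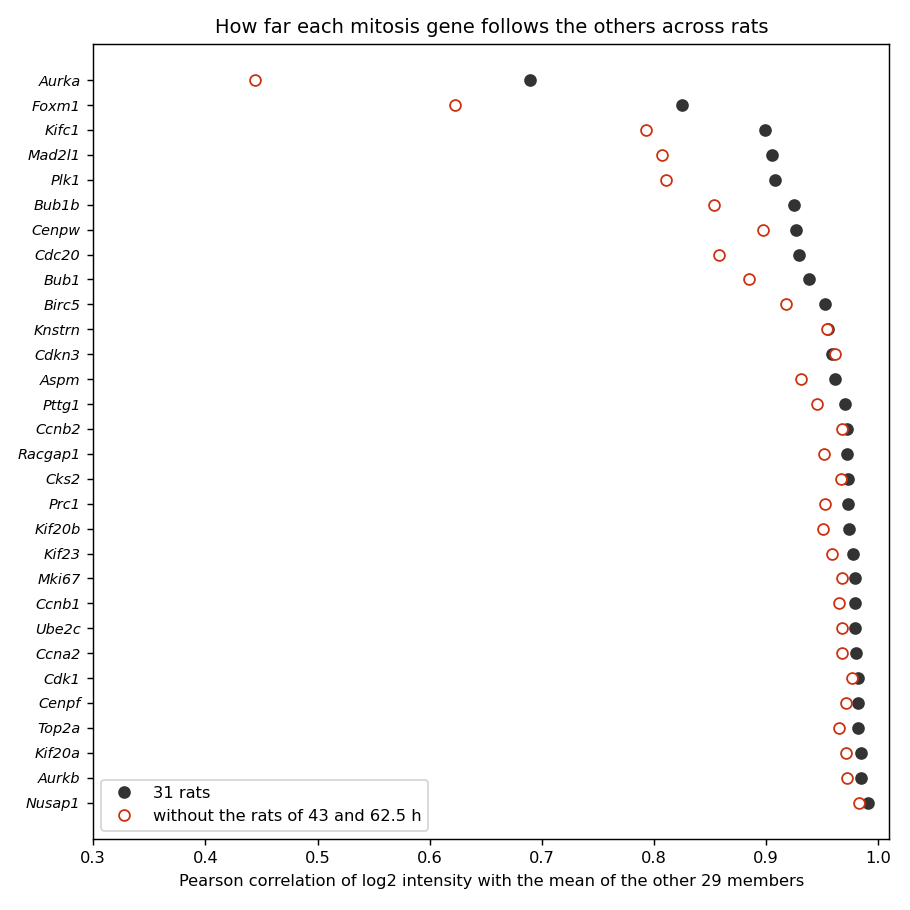
Pearson correlation of each member's log2 intensity with the mean of the other 29 members, over 31 rats (filled) and over 29 rats without those of 43 and 62.5 h (open), ordered by the value over 31 rats. Aurka is lowest at 0.69 and 0.44, Foxm1 follows at 0.83 and 0.62, and 27 members lie at 0.9 or above over 31 rats.

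Second probe sets of the measured members were read as a check of the profiles. Of 14 such probe sets 13 had a correlation of at least 0.5 with the chosen one, and 11 were highest in the rat of 62.5 h. The exception was a Cdc20 probe set with an intensity under 10 on all 31 arrays and a correlation of 0.17. The second probe set of Foxm1, under 10 on 28 arrays, had a correlation of 0.59 with the chosen one and was highest at 58 h, and a second of Mad2l1 was highest at 43 h with a correlation of 0.92. Aurka had no second probe set. Only Top2a and Cdc20 had a second probe set that passed the limit of 10, and the others fell under it on at least 1 array. In Top2a it had a mean log2 on day 3 above that of day 1 by 1.09, against 1.60 for the chosen one. In Cdc20 these values were 0.65 and 1.28.

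The members that could not be counted as measured are given as values. Tpx2, Nek2 and Ckap2 had no probe set in the annotation used. Ect2, Cdca3, Kif2c, Kif11, Melk, Hmmr, Ttk, Cdca8 and Cenpe had probe sets that fell under 10 on at least 1 array. All 9 were highest in the rat of 62.5 h, and their correlations with the mean over the members ran from 0.89 for Cenpe to 0.98 for Kif11. Just inside the limit, the lowest intensities were 10.0 for Cdc20, 10.2 for Knstrn, 10.3 for Bub1b and 10.5 for Aspm, and just outside they were 9.66 for Cdca3, 9.62 for Kif2c, 9.42 for Ect2 and 9.17 for Hmmr. Without any limit 39 members could be tested and 2 passed for day 3 against day 1 (Cenpf and Knstrn). With a limit of 20 there were 12 to test and 2 passed (Ccnb2 and Cdk1), while Cenpf and Knstrn fell under that limit and were not tested. The adjustment ran over other numbers of probe sets in these fits, and the share of all that passed is not given here. Ccnb2 had a change of 2.15 in both, with an adjusted p from limma of 0.0735 without a limit and 0.0435 with a limit of 20.

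Outside the mitosis lists, the 5 genes whose log2 profile was most like the mean over the members were Pclaf, Uhrf1, Stmn1, Mnd1 and Mtfr2. Pclaf, which binds the replication clamp, had a Pearson correlation of 0.98 over 31 rats (Spearman's rho 0.97, and 0.96 without the rats of 43 and 62.5 h). Uhrf1, which keeps DNA methylation through replication, had 0.97 (rho 0.93, and 0.94). Stmn1, stathmin, a microtubule-destabilizing protein, had 0.94 (rho 0.90, and 0.88), Mnd1, known from meiotic recombination, 0.93 (rho 0.89, and 0.90) and Mtfr2, named for mitochondrial fission, 0.93 (rho 0.85, and 0.87). All 5 were highest in the rat of 62.5 h, where Pclaf was at 1233 and Stmn1 at 4576. None passed for day 3 against day 1, with adjusted p from 0.0503 for Mnd1 to 0.384 for Mtfr2.

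Of the 28 other mitosis genes none passed for day 3 against day 1, where 1.12% of all probe sets did. Of these genes 21 had an unadjusted p under 0.05, against 13.8% of all, and the median change was 0.66 on the log2 scale, beside 1.56 for the 30 members. For the 23 DNA replication genes these were 0, 10 and 0.35, and for the 22 genes of the anaphase-promoting complex and cohesin 0, 2 and 0.09. Against day 2, day 3 had a median change of -0.02 in the replication genes and of 0.70 in the members. For the slope along the day limma called 1 of the 28, Cdc25b, the phosphatase that activates Cdk1, where 1.96% of all probe sets passed. Of the 28, 2 had an unadjusted p under 0.05 for this slope, against 12.6% of all. The correlation of Cdc25b with the mean over the members was 0.46.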

How the data were processed

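Each of 32 rats gave 1 Affymetrix expression array of mammary gland RNA. The deposited intensity values are linear. The authors had derived them with GC-RMA, named GCRMA in the submitters' notes on processing, a method that corrects background by probe sequence and then normalizes the arrays together (its version is not given in the sources used here). Array medians of the deposited intensities ran from 49.9 to 54.7, and the number of arrays limits the precision. The labels describe glands kept in a stabilizing solution, while the paper describes frozen glands, and which was used is not settled here. No time point has a replicate, so the spread within a day mixes animal, hour and measurement error.

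Left out were 57 control probe sets, the array of 40 h, and any probe set under an intensity of 10 on 1 of the other 31 arrays. Log2 intensities were fitted with limma 3.58.1 in R 4.3.3, with a term for each day and a slope per 10 h of clock time around 12.5 h, and p-values were adjusted over 21068 probe sets. Method 1 used splines of order 2 with 8 basis functions, in Python 3.11.15 with numpy 2.4.6 and scipy 1.17.1. The fit was tested on simulated data.

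The members, lists and tests were chosen with earlier results of these data known. Genes are named where they passed a test, were the 5 least or 3 most like the mean of the other members, had the 3 largest or smallest SDs, lay next to the limit of 10, were among the 5 outside genes most like the members, or passed in another list, and where a sentence gives a member's role. Symbols came from the platform annotation, and promoter sequences from RefSeq (GRCr8). Alternatives covered normalization, the arrays and filter, weights, covariates, the spline, the choice of probe set and each rat left out.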

Additional observations from a re-analysis of the deposited data

Results flagged for a closer look

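In 22 of 124 sets of rats, each set being 1 member, or the mean over the members, on 1 day, the highest or lowest log2 value stood far from the others, with its gap to the nearest divided by the range of the day above the critical value for that number of rats. Chance flags about 1 in 20 such sets, and here it was 17.7%, in sets that share rats and genes that move together. The rat of 82.5 h on day 4 made up 13 of the 22. Its share of the range was 0.707 for the mean over the members, 0.837 for Knstrn, 0.771 for Ccnb2, 0.723 for Kif23, 0.709 for Cenpf and 0.707 for Kif20a. It was 0.683 for Mki67, 0.66 for Racgap1, 0.635 for Ccnb1, 0.635 for Bub1, 0.634 for Ube2c, 0.617 for Prc1 and 0.586 for Cenpw. Knstrn was at 79.0 in that rat and at most 28.99 in the other 6 of day 4, and Ccnb2 was at 207 and at most 81.1.

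The rat of 62.5 h on day 3 made up 7. The share was 0.727 for Foxm1, 0.618 for Birc5, 0.6 for Kifc1, 0.592 for Mad2l1, 0.551 for Bub1, 0.55 for Aurkb and 0.548 for Cenpw. Foxm1 was at 51.4 in it and at most 24.7 in the other 7 rats of day 3.

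On day 1 the high value of Aurka in the rat of 7.5 h had a share of 0.626, with 122 against at most 44.2 in the other 7 rats. The low value of Mad2l1 in the rat of 10 h had a share of 0.575, with 24.98 against at least 32.7 in the others.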

How the results depend on the processing

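The number of members called for day 3 against day 1 was 7, and it was 10 with quantile normalization, 10 with all 32 arrays and 8 with array weights. It was 2 of 39 with no filter and 2 of 12 with an intensity of at least 20. With luminal epithelial markers as a covariate it was 13, and with lymphocyte markers (chosen after the data were seen) it was 3. With no clock hour it was 13. It ran from 1 to 16 when 1 rat at a time was left out. The joint test of the 4 days called 1 with luminal markers and 1 with no clock hour, and 0 to 1 without 1 rat. Method 1 called 20 members, but 6 with splines of order 3, 1 (Knstrn) at a false discovery rate of 0.05 and 7 with an intensity of at least 20, and 3 to 27 without 1 rat. The share of all probe sets called in each of these other runs is not given here, and the causes were not tested. The number of members to test also differs with the filter. All other counts stayed at 0 in every run, and the median changes of the members between days kept their direction, while the median slope was -0.03 without the rat of 43 h. No paired analysis was possible because each time point is 1 rat and the labels carry no replicate numbers. With 7 or 8 rats a day and large differences among rats, a member that missed the threshold is not shown to be unchanged.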

Other observations

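The array of 40 h, on day 2, was left out of all tests. On it the mean over the 30 members was -0.45, between the low rats of 32.8 to 35.5 h and the rats of 38.3 and 41.6 h of the same day, at 0.22 and 0.27. Aurka was at 21.1 on it, under its lowest value on the other 31 arrays, 22.8. Mad2l1 was at 46.4, above its median of 38.9 over the other arrays, and Cenpw was at 41.8, below its median of 43.7.

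The genes whose profile ran most against the mean over the members were Runx1 (Pearson correlation -0.90 over 31 rats), Serping1 (-0.87) and Aqp5 (-0.84). Runx1 is a transcription factor, Serping1 an inhibitor of complement and Aqp5 a water channel of secretory epithelium. They were chosen for these values, which are a description.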
